A study of Mus musculus and Homo sapiens with 14 samples.

Results

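The immunoglobulin variable (V) gene repertoire was read from 10 mouse RNA sequencing libraries as the genes whose symbol starts with Ighv (heavy chain), Igkv (kappa light chain) or Iglv (lambda light chain) and that held 10 or more counts in any library. This rule took 221 of the 226 V genes in a table of 27179 entries: 116 Ighv, 102 Igkv and 3 Iglv genes. The 5 genes left out held at most 9 counts (Ighv1-16), and the lowest genes taken in were Ighv1-19-1 with a maximum of 31 counts and Ighv6-7 with 36. The study addressed the role of the transcription factor IRF4 in established plasma cells. In the mouse arm, hosts received bone marrow of genotype Irf4 flox/- (1 floxed and 1 deleted allele) or Irf4 flox/+ (1 floxed and 1 intact allele) together with uMT bone marrow, which cannot give mature B cells. Both genotypes were given tamoxifen on days 1, 2, 7 and 8, and donor plasma cells were sorted from the spleen on day 14, with 2 libraries per genotype. In the cell line arm, libraries labelled MPC-11, a mouse plasmacytoma line, carried Cas9 and a guide for Irf4 (genotype label Irf4 -/-), or an empty vector in place of it, received doxycycline and were sorted on day 3, with 2 libraries each. Bone marrow plasma cells and splenic follicular B cells of wild-type mice gave 1 library each. All labels give the strain C57BL/6, and they name no Cre driver, age or sex. Nothing in the labels says whether libraries of a group came from separate mice or cultures, so p-values measure only the spread between these samples. The libraries are called flox/- 1 and 2, flox/+ a and b (their count columns share a name), guide 1 and 2, empty 1 and 2, BMPC and FoB.

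A V gene encodes most of the antigen-binding part of an antibody chain. During B cell development one V gene per chain is joined to J segments, and in the heavy chain to D segments as well, so that each B cell clone uses 1 heavy and 1 light chain V gene. Its descendants, plasma cells included, keep that choice. A polyclonal population therefore shows reads over many V genes, while a clonal tumor line is known for a single rearranged pair. Plasma cells devote a large part of their mRNA to immunoglobulin, whereas resting B cells carry little. In bulk RNA, more cells that use a V gene and more transcripts of it per cell cannot be told apart, and neither can fewer cells and less RNA per cell.

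Libraries held 18680882 to 26993510 counts. The level of Irf4 was 82.6 and 99.7 CPM (counts scaled to a common library size, here with TMM factors for library composition) in the flox/- libraries against 114 and 53.8 CPM in the flox/+ libraries, and the groups overlapped (log2 fold change 0.12 ± 0.43, SE, n = 2 per group; edgeR adjusted p = 0.967). It stood at 275 and 146 CPM with the guide against 467 and 495 CPM with the empty vector (log2 fold change -1.19 ± 0.37, SE; edgeR adjusted p = 0.592). The table gives 1 count per gene, so the deleted part of Irf4 alone was not measured, and libraries are called by their labels. CPM are scaled within the libraries of each comparison, and the marker sums over all 10. Markers of several other cell types stood higher in the splenic flox/- libraries. The summed level of 11 macrophage and monocyte markers, all present in the table, was 9669 and 978 CPM in flox/- against 767 and 310 CPM in flox/+. The sum of 12 T cell markers was 231 and 633 CPM against 16.2 and 30.7 CPM, and that of 11 mature B cell markers 793 and 989 CPM against 288 and 318 CPM. The sum of 8 NK cell markers was 47.5 and 133 CPM against 13.6 and 22.0 CPM, and that of the 6 erythroid markers found was 827 and 44.95 CPM against 42.4 and 4.89 CPM. The 7 neutrophil markers summed to at most 2.40 CPM in the splenic libraries and to 805 CPM in BMPC. Their part in the results below was not tested. The sum of 7 plasma cell markers was 34825 and 32047 CPM in flox/- and 76266 and 96044 CPM in flox/+. It was 50397 CPM in BMPC, 254 CPM in FoB, and 8246 to 12997 CPM in the libraries labelled MPC-11. Except in FoB, most of this sum was Jchain, at 31855 and 29097 CPM in flox/- and 70069 and 88270 CPM in flox/+. Sdc1, Xbp1, Tnfrsf17 and Slamf7 were also lower in flox/- without overlap, but Prdm1 and Irf4 overlapped. Prdm1 was higher in the libraries labelled MPC-11 (176 to 289 CPM) than in any primary library (at most 161 CPM).

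The 4 libraries labelled MPC-11 did not carry the chains for which that line is known. MPC-11 is known as an IgG2b kappa line from a BALB/c mouse. Here Igha, the IgA heavy chain, held 99.88 to 99.996% of their heavy chain constant counts, and Ighg2b had at most 22 counts per library. Lambda made up nearly all of their light chain V reads. They are therefore called libraries labelled MPC-11 throughout.

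Sequences of 6 V genes are printed because the results turn on them. Each is the last 300 coding bases of the gene from GENCODE M21 (GRCm38, the same build as mm10), 5′ to 3′ on the coding strand, where the V exon ends at the joining site. Capitals mark bases that differ from the partner named or that it lacks, while bases found only in the partner are not marked. Iglv1 (chr16:19085017-19085500, minus strand) carried nearly all V reads of the libraries labelled MPC-11, and it differs from Iglv2 (chr16:19260401-19260859, minus strand) at 8 of these 300 bases, which shows how close the genes lie between which reads had to be assigned.
Iglv1: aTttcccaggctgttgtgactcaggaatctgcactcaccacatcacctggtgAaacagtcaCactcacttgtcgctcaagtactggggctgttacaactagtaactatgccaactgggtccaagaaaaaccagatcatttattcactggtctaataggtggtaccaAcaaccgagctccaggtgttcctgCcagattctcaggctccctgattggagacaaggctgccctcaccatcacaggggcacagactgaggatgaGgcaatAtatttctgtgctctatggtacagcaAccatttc
Iglv2: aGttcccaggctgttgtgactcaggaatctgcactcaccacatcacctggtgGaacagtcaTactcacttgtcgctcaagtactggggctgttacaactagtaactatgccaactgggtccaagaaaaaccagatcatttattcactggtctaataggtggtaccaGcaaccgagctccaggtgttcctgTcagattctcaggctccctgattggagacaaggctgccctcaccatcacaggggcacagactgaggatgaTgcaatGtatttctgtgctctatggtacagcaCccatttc
Ighv5-12 (chr12:113702124-113702578, minus strand; capitals against Ighv5-4) and Igkv3-7 (chr6:70607437-70608036, plus strand; capitals against Igkv3-12) led the heavy and kappa reads of flox/- 1.
Ighv5-12: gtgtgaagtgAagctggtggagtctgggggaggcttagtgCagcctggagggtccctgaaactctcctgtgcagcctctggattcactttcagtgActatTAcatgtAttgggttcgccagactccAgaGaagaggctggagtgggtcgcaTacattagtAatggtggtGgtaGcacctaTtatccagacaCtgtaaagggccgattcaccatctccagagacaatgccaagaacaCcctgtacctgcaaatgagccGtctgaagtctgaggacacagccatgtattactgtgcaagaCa
Igkv3-7: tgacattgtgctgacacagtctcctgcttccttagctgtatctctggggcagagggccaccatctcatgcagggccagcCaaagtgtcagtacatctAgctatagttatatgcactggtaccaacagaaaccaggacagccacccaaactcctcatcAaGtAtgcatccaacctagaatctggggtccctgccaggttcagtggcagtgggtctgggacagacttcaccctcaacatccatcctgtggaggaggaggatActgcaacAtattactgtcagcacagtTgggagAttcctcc
Ighv5-17 (chr12:113859149-113859670, minus strand; capitals against Ighv5-9-1) and Igkv6-15 (chr6:70406469-70406992, minus strand; capitals against Igkv6-23) were the most used genes across several primary libraries.
Ighv5-17: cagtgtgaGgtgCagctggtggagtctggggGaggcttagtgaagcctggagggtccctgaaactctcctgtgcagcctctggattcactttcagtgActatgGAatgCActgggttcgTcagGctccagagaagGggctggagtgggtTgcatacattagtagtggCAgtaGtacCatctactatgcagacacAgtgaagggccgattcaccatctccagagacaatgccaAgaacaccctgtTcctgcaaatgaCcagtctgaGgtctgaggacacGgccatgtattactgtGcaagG
Igkv6-15: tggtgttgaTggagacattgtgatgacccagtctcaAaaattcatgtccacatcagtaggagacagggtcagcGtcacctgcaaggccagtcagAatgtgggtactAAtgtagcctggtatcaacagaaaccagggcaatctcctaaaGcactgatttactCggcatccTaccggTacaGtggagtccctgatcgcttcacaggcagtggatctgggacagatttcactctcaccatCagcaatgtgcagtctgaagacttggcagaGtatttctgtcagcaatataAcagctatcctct
A symbol match in GENCODE M21 was found for 220 of the 221 genes. The Ighv genes lie at 113578504 to 116010093 of chromosome 12, the Igkv genes at 67555497 to 70704177 of chromosome 6 and the Iglv genes at 19085017 to 19260859 of chromosome 16. Another member with at least 95% sequence identity exists for 55 Ighv and 49 Igkv genes, so values of single genes in these groups are uncertain where reads matched several genes. Exonic lengths had medians of 353 bases (Ighv) and 362 bases (Igkv). The leading gene of each locus was the same by reads and by reads per length in all 18 pairs of a locus and a primary library.

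The V reads of the libraries labelled MPC-11 came almost entirely from Iglv1, while primary plasma cells spread theirs over 3 loci. V reads took 11.2 and 11.2% of all counts with the guide and 12.1 and 5.89% with the empty vector. They took 13.5 and 13.1% in flox/-, 19.9 and 21.3% in flox/+, 15.5% in BMPC and 0.681% in FoB. The mean over the 4 libraries labelled MPC-11, 10.1% ± 2.84 (SD), was below that of the 5 primary plasma cell libraries, 16.6% ± 3.75 (exact permutation test, two-sided, p = 0.0159, the smallest p that 4 against 5 allows; adjusted p = 0.0204 over 9 measures). With FoB among the primary cells that difference was -3.90 percentage points and no longer passed (exact permutation p = 0.352). Lambda V genes made up at least 99.998% of light chain V reads in the libraries labelled MPC-11, against 20.0% ± 8.68 (SD, n = 5) in primary plasma cells, and the ranges did not overlap (exact permutation p = 0.0159, adjusted p = 0.0204).

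**Figure D1:**
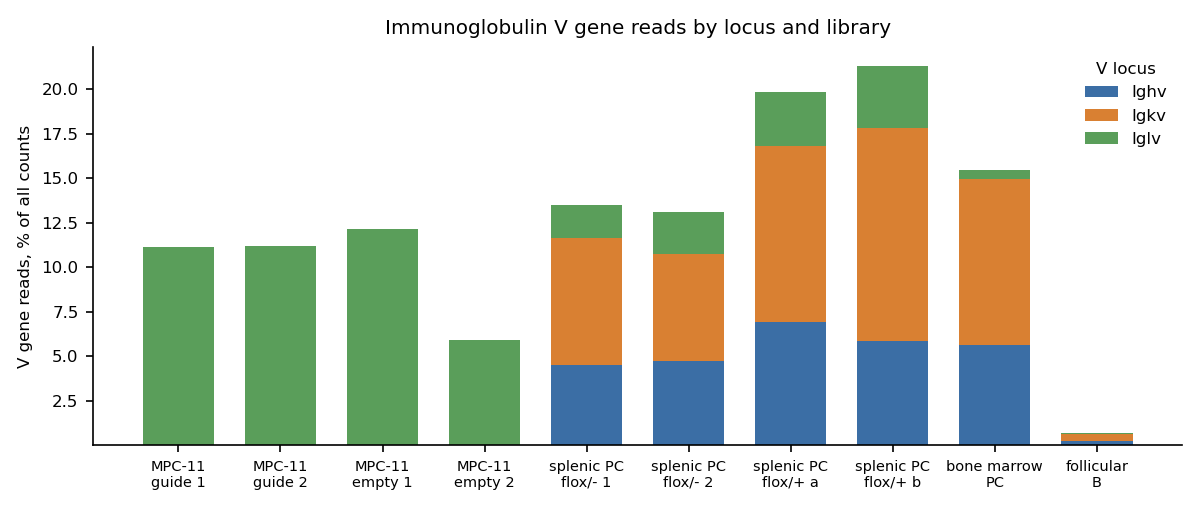
Percent of all counts assigned to Ighv, Igkv and Iglv genes in each library (stacked bars, 1 bar per library). The 4 libraries labelled MPC-11 show lambda only at this scale, at 5.89 to 12.1% of counts, while splenic and bone marrow plasma cells (PC) carry all 3 loci and follicular B cells hold 0.681%.

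Iglv1 had 2538873 and 2044880 reads with the guide and 2293223 and 1113511 with the empty vector. It took 99.2 and 98.0% of Iglv reads with the guide and 98.2 and 99.0% with the empty vector, against 78.5 and 53.7% in flox/-, 58.7 and 74.0% in flox/+ and 66.7% in BMPC. All 4 values of the libraries labelled MPC-11 were above all 5 of the primary plasma cells (98.6% ± 0.620, n = 4, against 66.3% ± 10.3, n = 5; SD, exact permutation p = 0.0159, adjusted p = 0.0204). Iglv2 was called lower in the libraries labelled MPC-11, at 533 and 1450 CPM with the guide and 1508 and 284 CPM with the empty vector against 4519 and 10589 CPM in flox/- and 20089 and 19369 CPM in flox/+. On the log2 scale the fold change was -3.70 ± 0.65 (SE; edgeR adjusted p = 0.00277). Iglv3 was called lower too, at -6.43 ± 0.54 on the same scale (SE; edgeR adjusted p = 9.52e-05). Iglv1 itself did not pass, at 72673, 70802, 82648 and 29383 CPM in these libraries against 18759, 13608, 37141 and 59980 CPM in splenic plasma cells (log2 fold change 1.18 ± 0.44, SE; edgeR adjusted p = 0.0618). DESeq2 called it higher (adjusted p = 0.00339), as did edgeR without empty 2 (log2 fold change 1.46) or without flox/+ b (1.43).

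Few reads of the libraries labelled MPC-11 were assigned to named heavy chain and kappa V genes, although constant region transcripts were there. Entries without a symbol, left out here, held 0.1924 and 0.3063% of counts with the guide and 0.27 and 0.2505% with the empty vector. In splenic plasma cells they held 0.0373 to 0.0823%. Whether these entries hold V reads, or V reads failed to match genes of the mm10 build, was not tested. Ighv reads summed over all genes to 26 and 34 with the guide and to 32 and 6 with the empty vector. In flox/- they summed to 1162638 and 1026062 and in flox/+ to 1538015 and 1586968. Igkv reads numbered 21 and 4 with the guide and 44 and 18 with the empty vector, against 1301259 to 3232645 in splenic plasma cells. Igha nevertheless had 96022 to 141593 reads in the 4 libraries labelled MPC-11, and Igkc, the kappa constant region, 7894 to 12837. Per 1000 reads of heavy chain constant regions there were 0.184 and 0.306 Ighv reads with the guide and 0.333 and 0.0487 with the empty vector, against 167 to 242 in primary plasma cells. For lambda there were 598 to 639 Iglv reads per 1000 Iglc reads in the libraries labelled MPC-11, against 509 to 582 in primary plasma cells and 170 in FoB. No read was found in any of the 4 libraries for 88 Ighv and 74 Igkv genes, and 5 Ighv and 5 Igkv genes had over 5 reads in their sum. Ighv1-20 (7 and 0 reads with the guide, 12 and 0 with the empty vector), Ighv1-37 (8 and 2, then 8 and 0) and Igkv3-2 (0 and 0, then 10 and 7) had the most.

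Across genes, 218 of the 219 V genes tested were called lower in the libraries labelled MPC-11 than in splenic plasma cells and none higher (edgeR adjusted p under 0.05), where 26.1% of the 12993 genes tested were called lower and 18% higher. Most members passed the filter on low counts only through the splenic libraries and so had to differ, and Iglv1 is the gene not called. DESeq2 called 218 members lower and Iglv1 higher, against 28.6% of all genes lower and 19.8% higher. The median log2 fold change was -15.73 over the members and -0.20 over all genes tested. For genes without a read in the 4 libraries labelled MPC-11 the fold is a lower bound, taken against 3 counts over the 4 libraries. Among the 160 such genes the bound ranged from 28.4-fold to 208467-fold lower. Igkv1-135, the gene with the largest fitted change, averaged 5920 ± 4858 CPM in the splenic libraries (SD, n = 4) and was at least 208467-fold lower. Of the other genes among the 10 highest by fitted change, Igkv3-4, Igkv8-19, Igkv6-32, Ighv9-3, Igkv1-110 and Igkv4-55 had no read either, with bounds from 105067-fold for Igkv4-55 to 162662-fold for Igkv3-4. Igkv8-30 and Igkv12-44 each had 1 read and Igkv3-7 had 4 reads in those libraries. The smallest fold among Ighv and Igkv genes with a read there was 232, for Ighv1-37.

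J segments were looked at after these values were seen. Iglj1 held 87.9 and 88.0% of lambda J reads with the guide and 86.1 and 76.0% with the empty vector, and Iglj3 held most of the rest, while Iglj2 stayed at or below 0.294%. Among heavy chain J segments, Ighj3 had 126 and 36 reads with the guide and 60 and 84 with the empty vector, Ighj4 had 14 to 51, and Ighj2 had none. Of 13 constant region and J chain genes, 11 were called lower in the libraries labelled MPC-11 than in splenic plasma cells, Igha among them (log2 fold change -4.66 ± 0.42, SE; edgeR adjusted p = 0.000126), and Iglc1 and Iglc3 were not called. Of 21 listed genes for immunoglobulin transcription and mRNA processing, all tested, 9 were called lower and 2 higher, where 26.1% of all genes were lower and 18% higher, the background for each list here. Lower were Ebf1, a B lineage factor with no read there (14.2 and 23.5 CPM in flox/-, 3.44 and 5.37 CPM in flox/+), Ikzf3 (log2 fold change -5.24), the coactivator Pou2af1 (-1.72) and the elongation factor Ell2 (-1.57), among others. Higher were the splicing regulator Hnrnpll (3.14) and the polyadenylation factor Cstf2 (0.98). For somatic hypermutation and class switching, 4 of 16 tested genes were called higher, among them the endonuclease Apex1 (3.67), and 2 lower. Of 10 tested genes for V(D)J recombination, 1 was called higher (Xrcc5, 1.99) and 2 lower (Paxx, -2.86, and Hmgb1, -1.21). Rag2, a subunit of the recombinase, had no read in any library. Of 2 tested surrogate light chain genes, Vpreb3 was called lower (-5.53).

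Diversity was measured as the effective number of V genes, the exponential of the Shannon entropy of read shares, which equals the number of genes that would give the same entropy if used equally. Over all 3 loci together it was 1.05 and 1.11 with the guide and 1.10 and 1.06 with the empty vector. It was 56.1 and 78.3 in flox/-, 88.3 and 74.0 in flox/+, 72.4 in BMPC and 106 in FoB. The libraries labelled MPC-11 averaged 1.08 ± 0.0287 (SD, n = 4) and primary plasma cells 73.8 ± 11.7 (SD, n = 5), with no overlap (exact permutation p = 0.0159, adjusted p = 0.0204). A tumor line was set against polyclonal cells by choice, so the p-values of this contrast add no support beyond the values. Within Iglv the values were 1.08 ± 0.0287 and 2.14 ± 0.273 (exact permutation p = 0.0159, adjusted p = 0.0204). Within Ighv the effective number was 7.90 ± 2.13 (n = 4) against 45.8 ± 8.79 (n = 5), and within Igkv 7.06 ± 4.27 against 41.3 ± 9.23 (SD; exact permutation p = 0.0159, adjusted p = 0.0204 for each). These last values rest on 4 to 44 reads per library labelled MPC-11. When each library was thinned to 6 Ighv and 4 Igkv reads, the differences shrank to -0.807 and -0.913 and did not pass (exact permutation p = 0.397 and 0.254), so a difference in diversity within these loci was not detectable at that depth. The leading gene's share was 26.4% ± 9.50 against 12.8% ± 8.13 in Ighv (exact permutation p = 0.0635, adjusted p = 0.0635) and rests on the same few reads.

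Among primary cells the repertoire was broad in both heavy and kappa chains. The effective number of Ighv genes was 30.6 and 49.7 in flox/-, 52.3 and 50.2 in flox/+, 46.3 in BMPC and 55.5 in FoB. For Igkv it was 31.7 and 46.4 in flox/-, 51.4 and 45.5 in flox/+, 31.2 in BMPC and 55.9 in FoB. Flox/- 1 was the lowest library in Ighv, and it and BMPC were the lowest in Igkv, while FoB was the highest in both. All 116 Ighv genes had a read in each plasma cell library, and 109 had one in FoB, which held only 49056 Ighv reads. At 1% or more of Ighv reads stood 28 and 33 genes in flox/-, 33 and 32 in flox/+, 25 in BMPC and 34 in FoB. Only 12 Ighv and 9 Igkv genes reached 1% in every primary library, and 49 and 47 reached it in at least 1, while 23 Ighv and 15 Igkv genes stayed under 0.1% in all 6. Genes annotated as pseudogenes, 8 Ighv and 2 Igkv, together held at most 0.387% of a locus's reads.

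**Figure D2:**
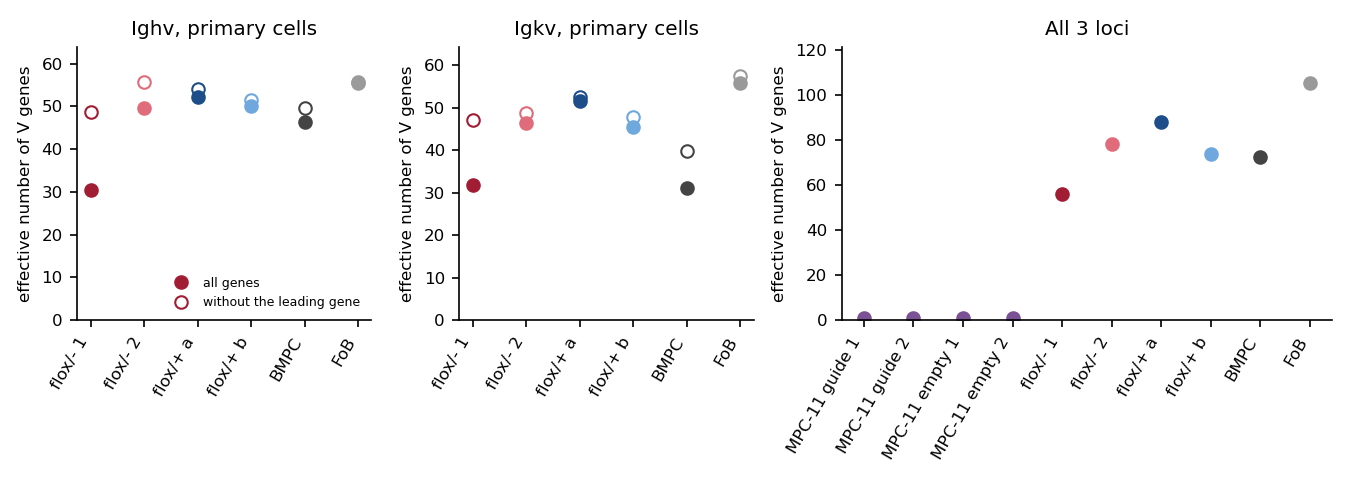
Effective number of V genes per library (filled points) for Ighv and Igkv in primary cells, and for all 3 loci with the libraries labelled MPC-11 on the left. Open points leave out the leading gene of each library. In Ighv, flox/- 1 moves to 48.6 without Ighv5-12, near the other libraries. Over all 3 loci the libraries labelled MPC-11 sit at 1.05 to 1.11.

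Between genotypes, the flox/- mean of 40.1 ± 13.5 effective Ighv genes compared with 51.3 ± 1.49 in flox/+ (SD, n = 2 each; exact permutation p = 0.333, the smallest that 2 against 2 allows, adjusted p = 0.750 over 9 measures). For Igkv the means were 39.0 ± 10.4 and 48.5 ± 4.19 (exact permutation p = 0.667). One library decides both differences. Without flox/- 1 the Ighv difference was -1.59 and the Igkv difference -2.11, and without flox/- 2 they were -20.7 and -16.8. When the leading gene of each library was left out, a step added after seeing the data, the effective number of Ighv genes was 48.6 and 55.8 in flox/- and 54.1 and 51.6 in flox/+, and that of Igkv genes 47.0 and 48.7 in flox/- and 52.5 and 47.7 in flox/+. Flox/- 1 is also the library with the highest macrophage sum, 9669 CPM, and the part of other cells in its V reads was not tested.

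In flox/- 1 a heavy chain gene, Ighv5-12, took 27.0% of Ighv reads (313391 reads; Wilson 95% interval 26.9 to 27.0%, counting error only). The same gene held 1.28% in flox/- 2, 0.588 and 1.86% in flox/+, 1.02% in BMPC and 0.832% in FoB, so that flox/- 1 stood 14.5-fold above the next library. A kappa gene, Igkv3-7, took 24.7% of Igkv reads in flox/- 1. It held 5.60% in flox/- 2, 2.96 and 4.03% in flox/+, 0.550% in BMPC and 1.03% in FoB. As expression levels these were 9687 and 412 CPM of Ighv5-12 in flox/- against 529 and 1563 CPM in flox/+ (log2 fold change 2.27 ± 1.38, SE; edgeR adjusted p = 0.630). Igkv3-7 stood at 13971 and 2284 CPM in flox/- against 3789 and 6884 CPM in flox/+ (0.61 ± 0.86, SE; edgeR adjusted p = 0.876). In both, flox/- 2 lay below both flox/+ libraries, so the groups overlapped.

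The other primary libraries had other leading genes. Ighv5-17 led in flox/- 2 with 12.1% and in flox/+ a and b with 7.58 and 7.33%, and it was the next gene after Ighv5-12 in flox/- 1 with 7.83%. It held 1.58% in BMPC and 3.89% in FoB. Ighv1-26 led in BMPC with 10.2% and in FoB with 4.97%, and BMPC had a further gene, Ighv14-4, at 8.46%. Among kappa genes, Igkv6-15 led in flox/+ a, FoB and BMPC. It held 6.54 and 6.04% in flox/-, 6.70 and 7.58% in flox/+ and 6.77% in FoB, but 20.3% in BMPC. Igkv6-20 reached 12.4% in BMPC, 6.46-fold above its next highest library. Igkv5-39 led in flox/- 2 with 9.14%, where the other libraries held 1.28 to 2.97%, and Igkv6-23 led in flox/+ b with 9.12%. Of all Ighv and Igkv genes, Ighv5-12 in flox/- 1 and Igkv6-20 in BMPC were the 2 at 1% or more in a library and 5-fold or more above every other primary library.

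**Figure D3:**
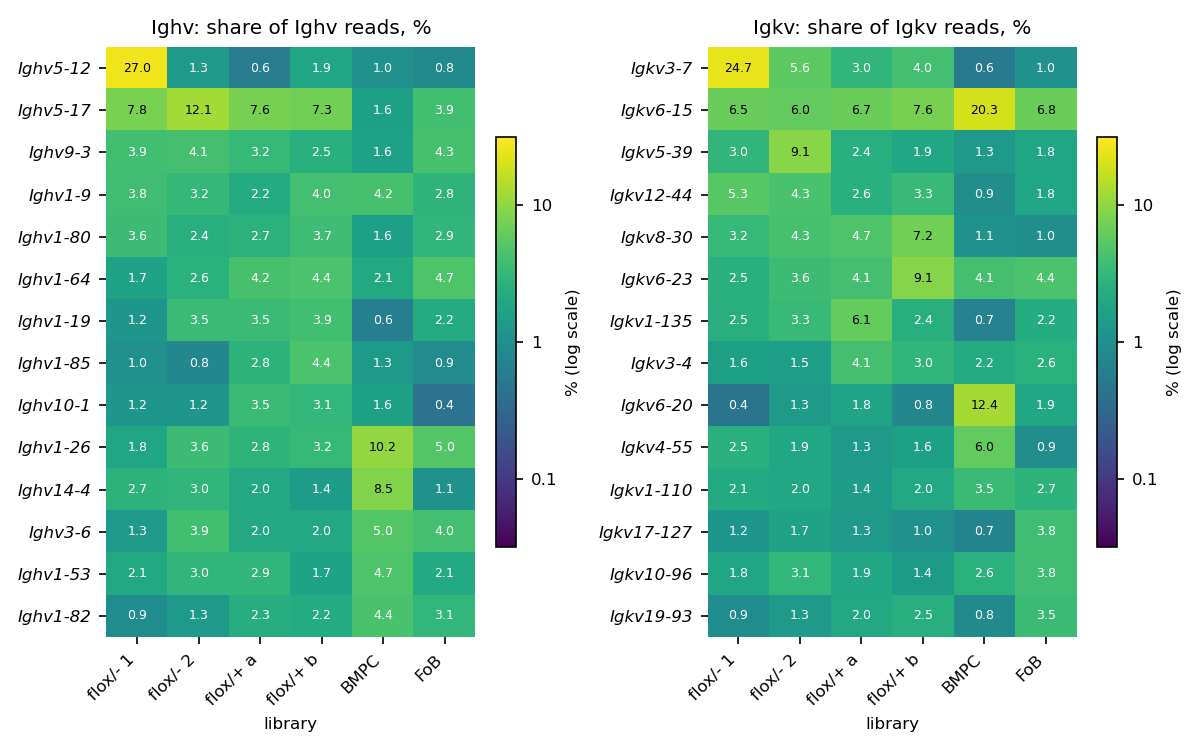
Share of Ighv (left) and Igkv (right) reads taken by the genes that were among the 5 highest in any primary group, in percent per library, with color on a log scale. Ighv5-12 and Igkv3-7 stand out in flox/- 1 at 27.0 and 24.7%, and Igkv6-15 and Igkv6-20 in BMPC at 20.3 and 12.4%.

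Gene by gene, the shares of flox/- and flox/+ did not overlap for 47 of 116 Ighv genes (19 higher and 28 lower in both flox/- libraries) and for 43 of 102 Igkv genes (13 higher and 30 lower), that is 40.5 and 42.2%. Over all genes, the groups did not overlap for 44% of those tested as TMM-scaled CPM and for 65.5% of 13392 genes as shares of all counts, so neither member percentage exceeds the background on either scale. Overlap of whole repertoires, the summed smaller share of each gene in 2 libraries, was 66.7% between the flox/- libraries and 81.7% between the flox/+ libraries for Ighv. Across genotypes it ran from 62.6 to 76.1%. Igkv gave 72.2% within flox/-, 77.2% within flox/+ and 67.0 to 75.0% across. The flox/+ pair was the most alike in both loci, and the flox/- pair lay within the range of pairs across genotypes. BMPC shared 50.6 to 63.4% of Ighv usage and 51.1 to 58.1% of Igkv usage with the splenic plasma cell libraries. Ranked by Spearman correlation over genes, Ighv usage gave 0.834 to 0.950 over the 15 pairs of primary libraries, a description over genes that share a library and its depth.

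By gene family, the Ighv5 group of 10 genes held more of the heavy chain reads in flox/- and the large Ighv1 group of 58 genes less. Ighv5 took 41.5 and 23.4% of Ighv reads in flox/- against 14.1 and 15.2% in flox/+, with 11.2% in BMPC and 15.0% in FoB. Ighv1 took 37.7 and 49.7% in flox/- against 61.2 and 60.3% in flox/+, with 55.4% in BMPC and 60.1% in FoB. In both families the genotypes did not overlap, and the gap was widest in flox/- 1. Without the leading gene of each library, Ighv5 held 19.9 and 12.9% in flox/- against 7.10 and 8.49% in flox/+. BMPC then held 12.5% and FoB 15.8%. The gene left out was Ighv5-12 in flox/- 1 and Ighv5-17 in flox/- 2 and both flox/+ libraries. In BMPC and FoB it was Ighv1-26, outside this family. These shares therefore cover unlike sets of genes, and flox/- 1 kept Ighv5-17 where flox/+ lost it. Among kappa families, Igkv3 held 32.7 and 14.4% in flox/- against 16.5 and 13.4% in flox/+, which overlap. Igkv6 held 12.7 and 14.4% in flox/- against 17.5 and 23.0% in flox/+ and 40.2% in BMPC. With 2 libraries per genotype, no exact test of these shares can reach 0.05.

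Along the heavy chain locus, the 38 genes nearest to the D and J segments (within 744 kb of the first V gene) held 56.0 and 41.8% of Ighv reads in flox/- against 27.9 and 28.5% in flox/+, with 34.0% in BMPC and 32.8% in FoB. The 39 farthest genes held 24.4 and 31.7% in flox/- against 44.7 and 42.8% in flox/+, with 35.8% in BMPC and 40.3% in FoB. Both flox/- libraries were thus shifted toward the near end and both flox/+ libraries toward the far end, with BMPC and FoB between them. Weighted by share, the mean distance from the first gene was 856 and 1069 kb in flox/- against 1317 and 1292 kb in flox/+, with 1195 kb in BMPC and 1228 kb in FoB. The Ighv5 genes lie near that end, Ighv5-12 at 124 kb and Ighv5-17 at 281 kb, so family and position are not independent. Without each library's leading gene the near share was 39.8 and 33.8% in flox/- against 22.0 and 22.9% in flox/+. BMPC then held 37.9% and FoB 34.5%. The splenic libraries lost a near gene, Ighv5-12 in flox/- 1 and Ighv5-17 in the others. BMPC and FoB lost a gene outside the near group, which raised their near share. These shares cover unlike sets of genes, so they cannot show whether flox/- stood apart from BMPC and FoB. Flox/- 2 and both flox/+ libraries lost the same gene, and flox/- 2 stayed higher. In the kappa locus the genotypes overlapped. Its 33 nearest genes held 53.7 and 41.9% in flox/- and 45.9 and 53.4% in flox/+.

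**Figure D4:**
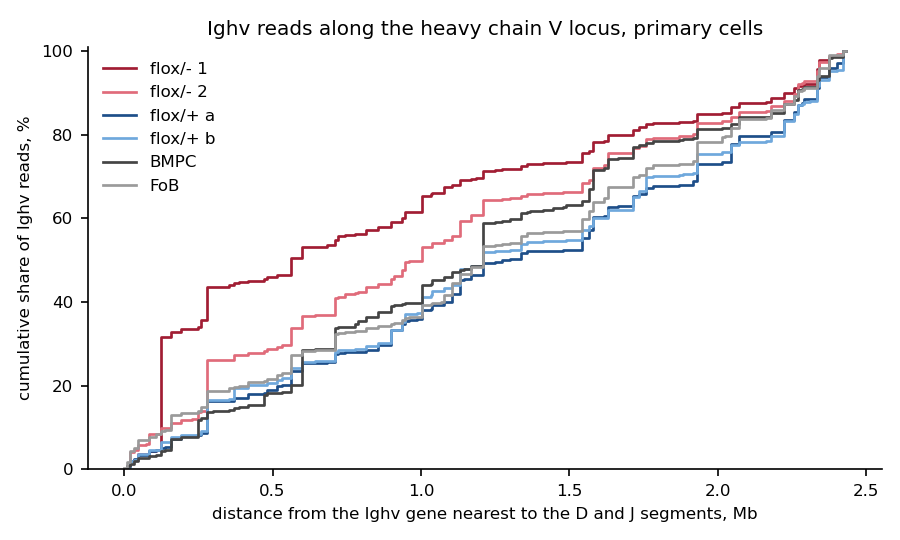
Cumulative share of Ighv reads (percent) against distance in Mb from the Ighv gene nearest to the D and J segments, for the 6 primary libraries. The steps mark single genes, the large one in flox/- 1 being Ighv5-12 at 124 kb. At 744 kb the flox/- curves stand at 56.0 and 41.8%, and the flox/+ curves are lowest there, at 27.9 and 28.5%.

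Lambda use overlapped between genotypes. Iglv genes took 20.8 and 27.9% of light chain V reads in flox/- and 23.7 and 22.5% in flox/+, which overlap (24.4% ± 5.04 and 23.1% ± 0.871, SD, n = 2 each; exact permutation p = 1.00). They took 5.22% in BMPC and 11.8% in FoB, below all splenic plasma cell libraries. Within lambda, Iglv1 led in all 6 primary libraries with 53.7 to 78.5%. Iglv2 held 18.9 and 41.8% in flox/- and 31.7 and 23.9% in flox/+, and Iglv3 was highest in FoB, at 25.4% against 2.07 to 9.59% elsewhere.

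In level rather than in share, V genes stood lower in flox/- than in flox/+ plasma cells, though edgeR called no gene at its adjusted threshold. V reads took 13.3% ± 0.287 of counts in flox/- and 20.6% ± 1.04 in flox/+ (SD, n = 2 each; exact permutation p = 0.333, the smallest possible). None of the 219 members tested was called by edgeR, where 0% of the 11887 genes tested were called in either direction and the smallest adjusted p was 0.260. At an unadjusted p under 0.05, 146 members were lower and 0 higher, against 3.85% of all genes lower and 8.63% higher. DESeq2 called 120 members lower and 0 higher at an adjusted p under 0.05, against 1.69% of all genes lower and 3.63% higher. CPM did not overlap between genotypes for 174 members, of which 173 were lower in flox/-, against 18.3% of all genes lower and 44% in either direction; Ighv11-1 was the gene higher. The median log2 fold change of the members was -1.73, that of all genes 0.09. With library size alone as scaling these medians were -0.81 and 0.98, so that scaling moved the median of all genes by over 0.1 and is set beside the members' values. The kappa constant region Igkc stood at 112255 and 80103 CPM in flox/- against 229766 and 294226 CPM in flox/+ (log2 fold change -1.45 ± 0.48, SE; edgeR adjusted p = 0.309, DESeq2 adjusted p = 0.00295). The sums of macrophage, T cell and mature B cell markers given above stood higher in the same flox/- libraries, and their part in this difference was not tested.

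The 5 members with the smallest unadjusted p were all lower in flox/-. Igkv9-123 had 1.08 and 1.00 CPM in flox/- against 90.5 and 35.8 CPM in flox/+. Its log2 fold change was -5.91 ± 0.63 (SE; edgeR adjusted p = 0.260). Ighv6-4 had 0.278 and 0.0627 CPM (9 and 2 reads) in flox/- against 23.9 and 23.1 CPM in flox/+ (log2 fold change -7.06 ± 0.82, SE; edgeR adjusted p = 0.260), and it was nearly without reads in BMPC and FoB as well, at 0.000743 and 0% of Ighv reads. The nearest members are 88.1% identical to Igkv9-123 and 89.6% identical to Ighv6-4. Ighv3-1 had 8.69 and 7.55 CPM against 88.4 and 65.6 CPM, Ighv10-1 had 420 and 383 CPM against 3103 and 2578 CPM, and Igkv4-69 had 24.8 and 28.7 CPM against 233 and 155 CPM. In all 5 genes both flox/- libraries lay below both flox/+ libraries. Their choice by p-value in this comparison favors such genes, and 79% of the members tested were lower without overlap. Among the abundant genes, Igkv6-15 had 3693 and 2464 CPM in flox/- against 8577 and 12959 CPM in flox/+, and Iglv1 11646 and 8479 CPM against 23333 and 36672 CPM (log2 fold changes -1.81 and -1.58). Of the members tested, 15 had a fold change above 0, and none of these reached an unadjusted p under 0.05.

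**Figure D5:**
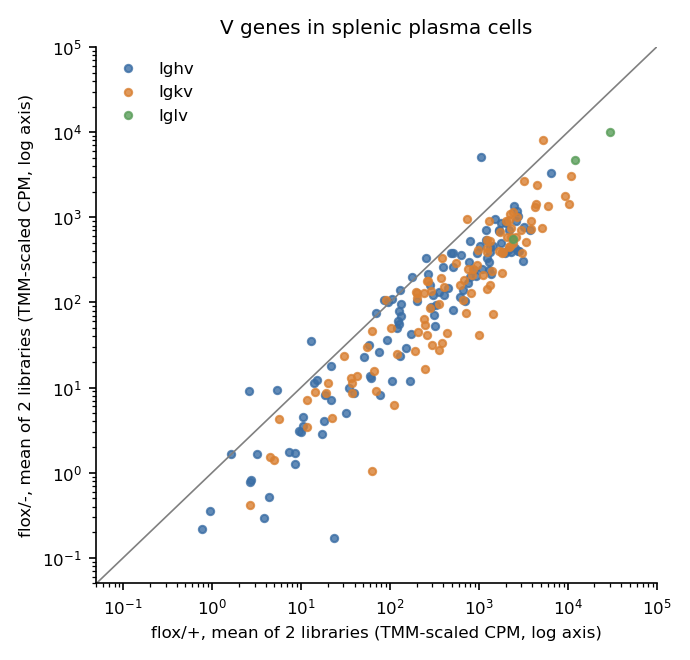
Mean TMM-scaled CPM of each V gene in the 2 flox/- libraries (vertical) against the 2 flox/+ libraries (horizontal), both on log axes, 1 point per gene colored by locus; the line marks equal levels. Of 219 genes, 204 have a fitted fold change below 0, and Ighv5-12 is the abundant Ighv gene above the line.

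The shares of the heavy chain constant genes also differed between the libraries. Counts per gene do not show which V gene was joined to which constant gene. Ighm held 52.7 and 47.8% of heavy chain constant reads in flox/- against 17.4 and 16.4% in flox/+, 51.4% in BMPC and 73.1% in FoB. Ighg2c held 15.0 and 21.2% in flox/- against 43.0 and 38.8% in flox/+. Ighd, which encodes the IgD heavy chain of mature naive B cells, had 39.4 and 66.0 CPM in flox/- against 5.90 and 4.71 CPM in flox/+ (log2 fold change 3.31 ± 0.44, SE, edgeR adjusted p = 0.260, DESeq2 adjusted p = 9.65e-09). Of the 13 constant region and J chain genes, none was called by edgeR, while at an unadjusted p under 0.05 there were 6 lower genes and 1 higher gene, against 3.85% of all genes lower and 8.63% higher. DESeq2 called 5 of the 13 lower and 1 higher, against 1.69% of all genes lower and 3.63% higher. Of 21 listed genes for immunoglobulin transcription and mRNA processing, 16 had a fold change above 0 and 5 below. EdgeR called none, and DESeq2 called 1 lower, Xbp1 (adjusted p = 0.000772). At an unadjusted edgeR p under 0.05 there were 2 lower and 2 higher, against 3.85% of all genes lower and 8.63% higher. Lower were Xbp1, the secretory factor of plasma cells (1232 and 1105 CPM against 2744 and 3674 CPM), and Ell2 (57.6 and 57.3 CPM against 126 and 86.1 CPM). Higher were Ebf1 (8.84 and 14.6 CPM against 2.16 and 3.28 CPM) and Nfkb1 (29.9 and 22.2 CPM against 12.9 and 11.5 CPM). None of the 10 tested V(D)J recombination genes or the 16 tested hypermutation and class switching genes reached an unadjusted p under 0.05 in this comparison.

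With the Irf4 guide, no V gene of the libraries labelled MPC-11 was called against the empty vector. Only the 3 Iglv genes passed the filter on low counts, and none was called, where edgeR called 0.0187% of the 10670 genes tested; at an unadjusted p under 0.05 the count of members was also 0 (3.49% of all genes higher, 2.56% lower), and DESeq2 called 0 members (1.03% of all genes higher, 0.469% lower). Iglv1 stood at 116934 and 114934 CPM with the guide against 130424 and 47981 CPM with the empty vector (log2 fold change 0.38 ± 0.44, SE; edgeR adjusted p = 1.00). The guide libraries lay between the empty libraries, and without empty 2 the log2 fold change turned to -0.15. Iglv2 stood at 858 and 2353 CPM against 2380 and 464 CPM, and Iglv3 at 37.9 and 44.0 CPM against 34.6 and 23.4 CPM. The V share of counts was 11.2% ± 0.0142 with the guide and 9.01% ± 4.42 with the empty vector (SD, n = 2 each; exact permutation p = 1.00). Effective numbers of Iglv genes were 1.08 ± 0.0423 and 1.08 ± 0.0259 (exact permutation p = 1.00). Ighv and Igkv diversity was not compared here, since a library held fewer than 100 reads of each. The genotype effect in splenic plasma cells was also set against the guide effect. Of the 219 members tested, 160 had no read in any library labelled MPC-11 and passed the filter only through the splenic libraries. Another 56, all Ighv or Igkv genes, had a read there but too few to pass the filter in the guide comparison. For these genes there was no usable guide effect, so the counts of members below say nothing about them, and only the 3 Iglv genes remain. That test called no member (edgeR, 0% of 12993 genes), with 1 member higher and 4 lower at an unadjusted p under 0.05 against 4.25% of all genes higher and 1.96% lower. In simulated counts for this test, edgeR recovered 0% of 2-fold and of 4-fold changes and 1.72% of 8-fold changes. Its lack of calls therefore cannot tell whether the effects differ. DESeq2 called 1 member lower, Ighv1-34, against 0.9% of all genes higher and 0.477% lower. Ighv1-34 had only 3 and 2 reads with the guide and 0 and 0 with the empty vector, so that call rests on counts near the floor.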

How the data were processed

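RNA was sequenced from 10 mouse libraries, and the authors deposited counts per gene. Per the submitters' processing notes, Subread 1.6.0, featureCounts and limma were used with the mm10 build; how reads that match several genes were counted is not given in the sources used here. Counts without a gene symbol, at most 0.306% of a library, were left out of library sizes and tests. The deposited log2 FPKM tables and the human libraries were not used. Read shares per locus, the effective number of genes and exact two-sided permutation tests over libraries were computed with Python 3.11.15 and scipy 1.17.1, adjusted by Benjamini-Hochberg over 9 measures (5 for guide against empty vector). Across genes, edgeR 4.0.16 quasi-likelihood tests with TMM and filterByExpr (minimum count 10) were run in R 4.3.3, each on the libraries of its comparison, with p-values adjusted over all genes tested and a threshold of 0.05. DESeq2 1.42.0 was an alternative. Other alternatives changed scaling, filter, index, member minimum and thinning, or left out 1 library at a time. Scripts were tested on simulated data. Gene lengths, positions and sequences came from GENCODE M21. Intervals are 95% Wilson intervals and cover counting error only. Genes were named if among the 5 highest of a locus in a primary group, at 10% or more of a locus in a primary library, at 1% or more in a library labelled MPC-11 with reads to rank, among the 10 largest called changes, or, with none called, among the 5 smallest p-values; others were chosen after their values were seen. Members and gene lists were chosen with earlier results of these data known.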

Additional observations from a re-analysis of the deposited data

How the results depend on the processing

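The near absence of Ighv and Igkv reads from the libraries labelled MPC-11 kept its direction under each alternative run, and 216 to 217 members were called lower when 1 library was left out. Members called higher numbered 1 (Iglv1) with library size alone or DESeq2, and 0 to 1 with 1 library left out. Thinned to 6 and 4 reads, the differences in effective number were -0.807 (Ighv) and -0.913 (Igkv), and that in the leading Igkv share 20.0 points. The leading Ighv share differed by 14.9 points with FoB and by 9.84 to 17.1 without 1 library. The leading Igkv share differed by 26.2 points with splenic plasma cells only and by 20.8 to 29.9 without 1 library, and the V share by -3.90 points with FoB. Between flox/- and flox/+, DESeq2 called 120 members lower and edgeR 0. The cause was not tested. In simulated counts for this comparison, edgeR recovered 0% of 2-fold and 12.7% of 4-fold changes and called 4 unchanged genes. DESeq2 recovered 4.69 and 52.4% of them and called 72 unchanged genes. The absence of edgeR calls therefore does not show that V gene levels were unchanged. Leaving out 1 library turned the direction of 3 flox differences: effective Iglv number (-0.397 to 0.161, with 0.130 without flox/- 1), leading Iglv share (-12.7 to 12.2 points, with 7.43 without flox/+ b) and lambda share (-2.28 to 4.85 points). For guide against empty vector, the ranges without 1 library were -0.0312 to 0.0287 for the effective Iglv number (0.0171 without empty 1), -0.631 to 0.651 points for the leading Iglv share (-0.396 without empty 1), -0.0313 to 0.0285 for all loci (0.0170 without empty 1) and -0.967 to 5.28 points for the V share. Their log2 fold changes turned too: the median of the members ranged from -0.35 (without empty 2; -0.06 without guide 2) to 1.27, Iglv1 from -0.15 (without empty 2) to 1.27, and Iglv2 from -0.73 (without guide 2; -0.55 without empty 2) to 1.79. In the difference of effects, DESeq2 called 1 member lower, and Igkv3-5 ranged from -6.09 to 0.56 (without guide 1). Same-numbered guide and empty libraries did not deviate together (r = -0.08), and the replicate block called 0 members, with log2 fold changes of 0.55 (Iglv1), 0.43 (Iglv2) and 0.52 (Iglv3). No paired analysis was possible because the flox/+ columns carry no replicate numbers. The alternative on FPKM values was not run, since those tables held no V gene rows. Depth limits Ighv and Igkv in the libraries labelled MPC-11, at 4 to 44 reads each.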
